A study of Homo sapiens with 12 samples.

Results

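Interferon-stimulated genes are the genes whose RNA cells raise after interferon. A set of 45 of them was read out by gene symbol from an RNA-sequencing table of 58302 genes, and all 45 were present, each in 1 row. RNA had been sequenced from 3 established human prostate cell lines with 4 libraries each. BPH-1 is labelled as a benign prostate line, and DU145 and PC3 as prostate cancer (PCa) lines. All lines were labelled WT, were grown in the same serum-containing medium, and had no interferon, virus or other treatment in their labels. As background, BPH-1 was immortalised with the large T antigen of a polyomavirus, DU145 was derived from a brain metastasis, and PC3 from a bone metastasis and is known to lack STAT3. Each group was a single line, so every comparison was between 2 lines, and nothing says that libraries of a line came from separate cultures; p-values therefore measured only the spread between these libraries. In RNA from whole cultures, fewer expressing cells and less RNA per cell cannot be told apart.

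Interferons are secreted proteins that bind receptors on the same or neighbouring cells. Type I and type III interferons act through the kinases JAK1 and TYK2 and a complex that holds STAT2 and IRF9 and binds the interferon-stimulated response element (ISRE) in front of its target genes, whereas interferon-gamma acts through GAS elements. The induced proteins bind viral RNA, block entry or release of viruses, and in part are themselves sensors and transcription factors of the same pathway, and many are also expressed at a low level without added interferon.

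The response element itself can be read in front of these genes. RefSeq promoters (GRCh38.p14), from 250 bases before to 50 bases after a transcription start, were matched for 36 of the 45 genes. The core letters GAAANNGAAA, searched on both strands, were present in a promoter of 24 of the 36 (66.7%) and of 1195 of 27305 genes in the whole table (4.38%). The letters TTCNNNGAA, a GAS core, were present for 10 of the 36 (27.8%) and for 9.38% of all genes, and the searches may overlap each other. These are matches of letters and not measured binding; IFI16 and DDX58, which were among the members with the largest differences, had no ISRE core in these windows. The sequences below are shown because they belong to genes that were much lower in both cancer lines (IFIT3, IFIT1, SAMD9, IFI44, DDX60) and to IFI6 and ISG15, each of which was called lower in 1 cancer line and not in the other; each runs 5′ to 3′ on the strand of the gene, with the ISRE core in capitals. On chromosome 10, IFIT3 had a match at chr10:89332420-89332459 (plus strand) and IFIT1 at chr10:89392492-89392531 (plus strand). IFI44 had a match at chr1:78649756-78649795 (plus strand), IFI6 at chr1:27672324-27672363 (minus strand) and ISG15 at chr1:1013375-1013414 (plus strand). SAMD9 had a match at chr7:93118091-93118130 (minus strand) and DDX60 at chr4:168318816-168318855 (minus strand).
IFIT3: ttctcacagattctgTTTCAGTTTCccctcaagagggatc
IFIT1: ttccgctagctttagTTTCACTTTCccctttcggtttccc
IFI44: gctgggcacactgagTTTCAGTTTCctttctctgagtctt
SAMD9: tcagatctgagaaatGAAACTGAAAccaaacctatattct
DDX60: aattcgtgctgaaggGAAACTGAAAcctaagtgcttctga
IFI6: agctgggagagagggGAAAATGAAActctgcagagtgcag
ISG15: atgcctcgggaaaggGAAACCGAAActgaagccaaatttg

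The libraries held between 12950665 and 16309559 reads, recovered from the steps between low values. Values are FPKM (fragments scaled to exon length and to the depth of the library), a level per length. The length counts all annotated exons of a gene, so levels of different genes can be compared only roughly. Some libraries stood apart in ways that touch these genes. Genes were grouped by the GC content of their exons, and the median of genes with a GC content up to 44.4% was set against that of genes from 57.4% upward, in log2 FPKM relative to all libraries. This difference was between 0.926 and 1.12 in the BPH-1 libraries and between -1.19 and 0.00188 in the PC3 libraries. In DU145 it was 0.465 and 0.176 in replicates 2 and 4, against -1.18 and -1.78 in replicates 1 and 3. The 45 genes had a median GC content of 47.2%, against 50.5% over 9218 well-covered genes, and 20 of them lay in the low-GC range and 5 in the high-GC range. Within DU145, replicates 1 and 3 both lay below replicates 2 and 4 for 10 members, with a GC content of 37.4% to 46.7%, and above them for 9 members, with a GC content of 51.6% to 67.0%. EIF2AK2 was at 2.33 and 1.36 FPKM in DU145 replicates 1 and 3 and at 6.47 and 6.58 in replicates 2 and 4, whereas USP18 was at 23.1 and 24.8 against 16.2 and 16.5. Over all 17016 genes tested in DU145, 35.9% lay below and 38.7% above in the same way.

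Another split of the DU145 libraries ran through the members. Replicates 1 and 2 both lay above replicates 3 and 4 for 21 of the 45 members, against 6.73% of all genes tested, and below them for IFITM3 alone, against 5.97%. The 21 were IFI16, IFI44, IFI44L, IFIH1, IFIT1, IFITM1, IFITM2, MX1, MX2, OAS1, OAS2, OAS3, RSAD2, DDX60, BST2, GBP1, GBP2, SAMD9, SAMD9L, TRIM22 and XAF1. Most of them were low in DU145: TRIM22, for example, was at 0.350 and 0.285 FPKM in replicates 1 and 2 and at 0.00736 and 0.00846 in replicates 3 and 4. Cell type markers split both ways. The fibroblast markers COL1A1, COL1A2, DCN and LUM were higher in replicates 3 and 4, with DCN at 0.373 and 0.214 FPKM against 0. PTPRC, CD14, ITGAM, EPCAM, KRT5 and PECAM1 had the same split as these members, with KRT5 at 0.342 and 0.499 FPKM against 0.0240 and 0. The part of this split in the results was not tested beyond leaving libraries out: without DU145 replicates 1 and 2, 31 members were lower in DU145 than in BPH-1 and 0 higher, and between the cancer lines 7 were higher and 7 lower in PC3. Of all 17874 genes tested in that fit against BPH-1, 5104 were lower and 4709 higher in DU145. Between the cancer lines, 2461 of 17146 genes were higher and 3987 lower in PC3.

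BPH-1 replicate 2 also stood apart. It was the highest of the 4 BPH-1 libraries for 43 of the 45 members, against 33.2% of all 15202 genes with at least 10 reads in every BPH-1 library. The members lay at a median of 0.70 above the BPH-1 mean in replicate 2, and at -0.20, -0.48 and 0.01 in replicates 1, 3 and 4, on the log2(FPKM + 1) scale. Over all genes the medians of the 4 libraries were between -0.03 and 0.02. The part that GC content and this library have in each difference below was not tested. Values corrected for GC content or without the library are given beside the counts of members and for some members only. None are given for single genes outside the set.

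**Figure D1:**
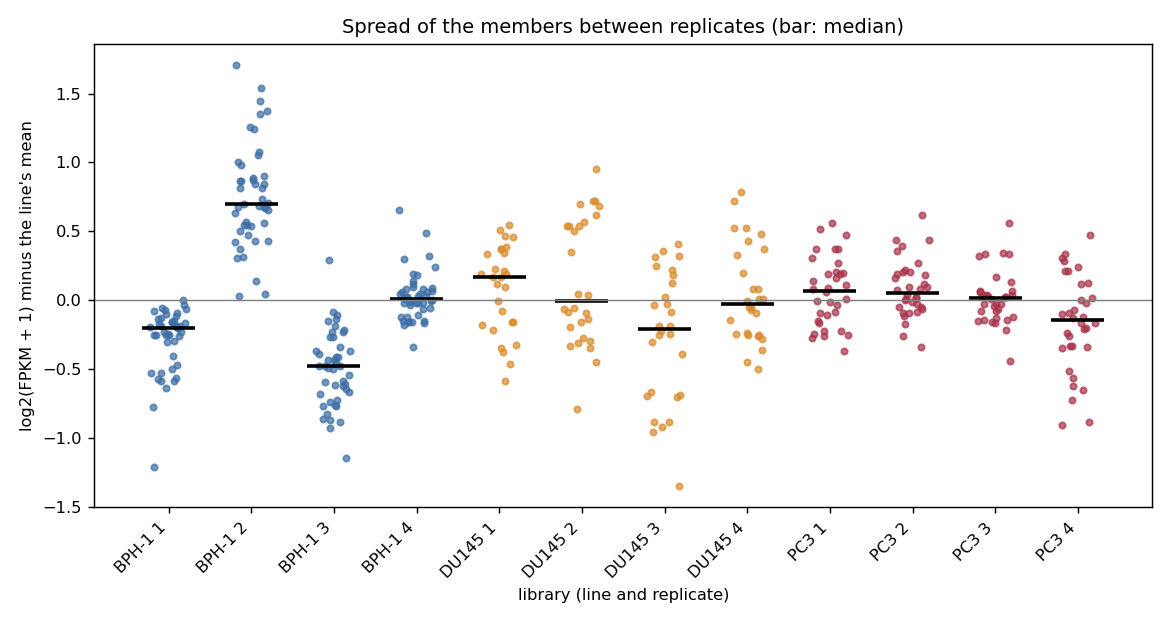
Each point is 1 member in 1 library, plotted as its log2(FPKM + 1) minus the mean of the 4 libraries of its line (vertical axis), for members with at least 10 reads in every library of the line; the bar is the median. BPH-1 replicate 2 has its median at 0.70, and the other 11 medians lie between -0.48 and 0.17.

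As a check of the labels, the epithelial keratins KRT8, KRT18 and KRT19 were present in all 3 lines. EPCAM, CDH1 and KRT5 were at 60.8, 28.4 and 147 FPKM in BPH-1, at 0.376, 0.180 and 0.216 in DU145 and at 9.1, 0.786 and 0.0118 in PC3. Such markers do not by themselves identify a line. Of endothelial markers in PC3, PECAM1 and KDR averaged 1.68 and 0.712 FPKM, and VWF and CDH5 0.00585 and 0.00175. Of blood cell markers, CD3E had no read in any library and PTPRC (CD45) averaged 1.35 FPKM in BPH-1, was at 1.35 and 1.25 in DU145 replicates 1 and 2, and had no read in the other DU145 libraries or in PC3. Of the 6 blood cell markers, 4 had over 3 reads in a library of BPH-1, 4 in DU145 and 3 in PC3, and their summed level was 5.57 to 9.21 in BPH-1, 5.37 to 10.4 in DU145 and 7.01 to 13.8 in PC3. CD68 made up most of the sum, with means of 4.71, 6.17 and 10.9 FPKM, while CD14 averaged 0.751 in BPH-1, 0.209 in DU145 and 0.088 in PC3, and ITGAM 0.18, 0.435 and 0.0875. CD14 was thus lower in both cancer lines, as most members were, and CD68 was not. PTPRC was absent from PC3, but in DU145 replicates 1 and 2 it lay inside the BPH-1 range of 1.15 to 1.54. The mean of ITGAM was higher in DU145 and lower in PC3 than in BPH-1. The part of these markers in the results was not tested.

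Most of the 45 genes were highest in BPH-1. The mean level was highest in BPH-1 for 39 genes, in DU145 for 3 and in PC3 for 3, and the median of the 45 mean levels was 9.46 FPKM in BPH-1, 0.98 in DU145 and 1.17 in PC3. In BPH-1 every member had at least 10 reads in every library, against 28 members in DU145 and 34 in PC3. Against BPH-1, 38 members were lower and 1 was higher in PC3 (limma on log2(FPKM + 1), Benjamini-Hochberg adjusted p under 0.05 over all genes tested). Of all 16408 genes tested there, 67.6% were called, 40.4% lower and 27.1% higher. In DU145, 33 members were lower and 1 was higher, while of all 17016 genes tested 62.7% were called, 32.4% lower and 30.3% higher. All 45 members passed the filter on low values in both comparisons, which share the BPH-1 libraries. Members near 0 in a cancer line passed only through BPH-1, where they were high, and could be called in the lower direction only. The counts with 10 reads required in every library are given with the alternatives at the end. The median log2 fold change of the members was -1.78 in PC3 and -1.56 in DU145, against -0.13 and -0.03 over all genes tested.

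**Figure D2:**
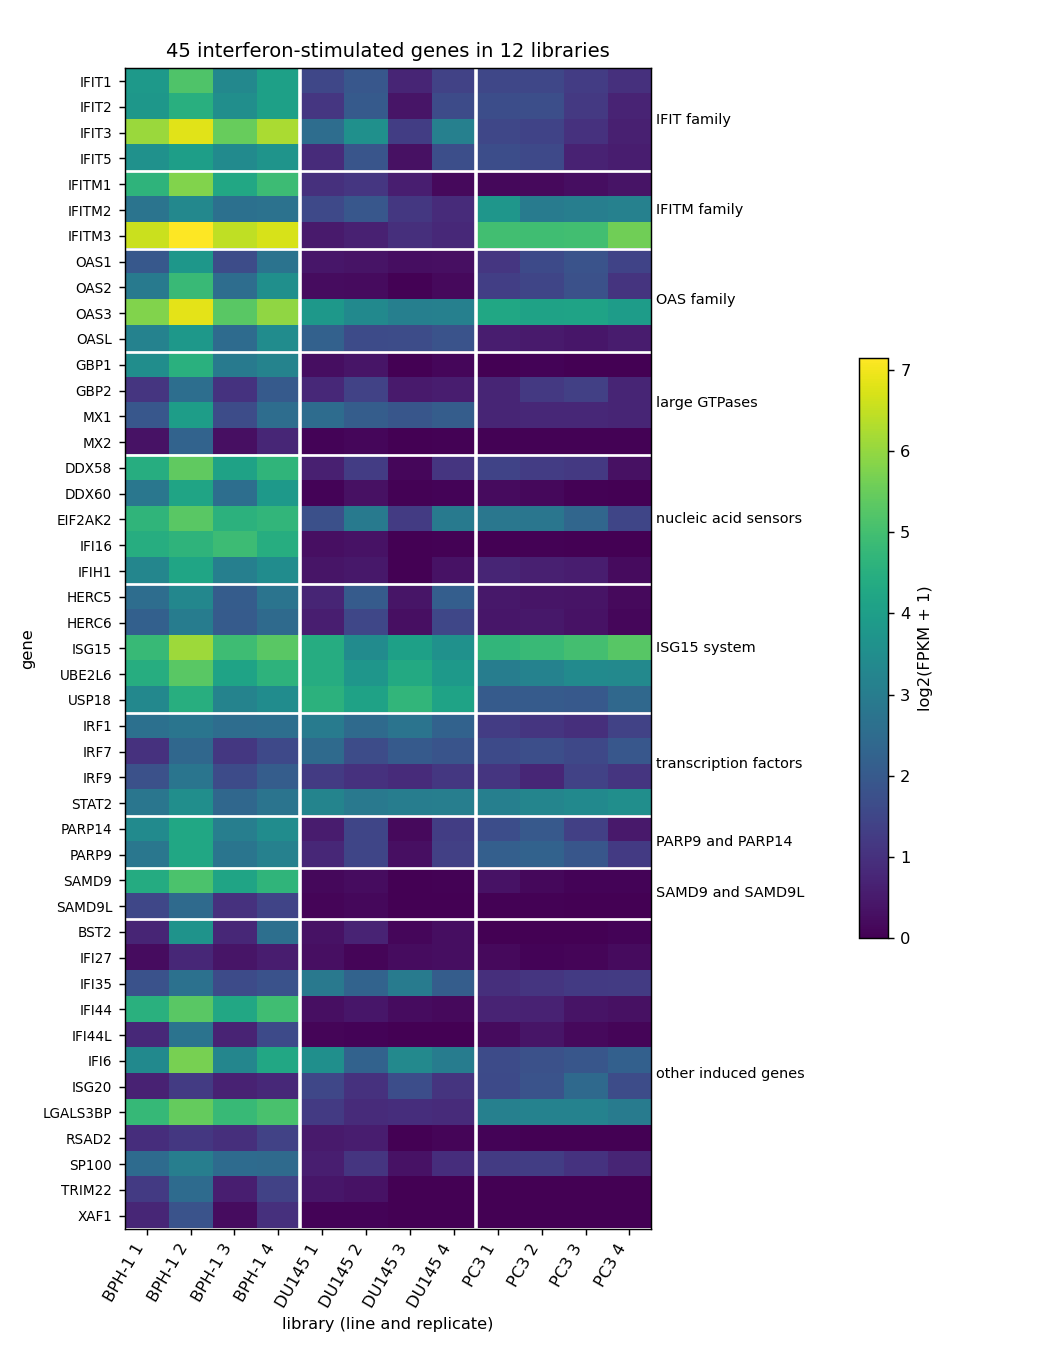
Level of each of the 45 genes (rows, grouped by role) in each of the 12 libraries (columns), as log2(FPKM + 1), with brighter colours for higher levels. Most rows are bright in the 4 BPH-1 columns and darker in the 8 cancer columns. Among those that stay visible are IFITM3, ISG15, OAS3, STAT2, IFITM2, UBE2L6 and LGALS3BP in PC3, and USP18, UBE2L6, ISG15, OAS3, IFI6 and STAT2 in DU145.

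The same counts were taken within ranges of GC content. Among genes with a GC content up to 44.4%, 19 of 20 members were lower in PC3, against 69.2% of 5013 genes tested, and their median log2 fold change was -2.60, against -0.71. In the range between the GC limits, 16 of 20 members were lower in PC3, with a median of -1.43, against 31.6% of 7683 genes and a median of 0. Of the 5 members with the highest GC content, 3 were lower in PC3 (median -0.84), against 19.8% of 3699 genes (median 0.23). In DU145 the counts were 19 of 20 at low GC content, 11 of 20 between and 3 of 5 at high GC content, against 61.9%, 22.7% and 14.4% of the genes tested. After each library's trend with GC content was divided out, 38 members were lower in PC3 and 36 in DU145, against 41.3% and 33.7% of all genes tested. Without BPH-1 replicate 2 as well, 39 and 35 were lower, against 39.8% and 31.4%.

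**Figure D3:**
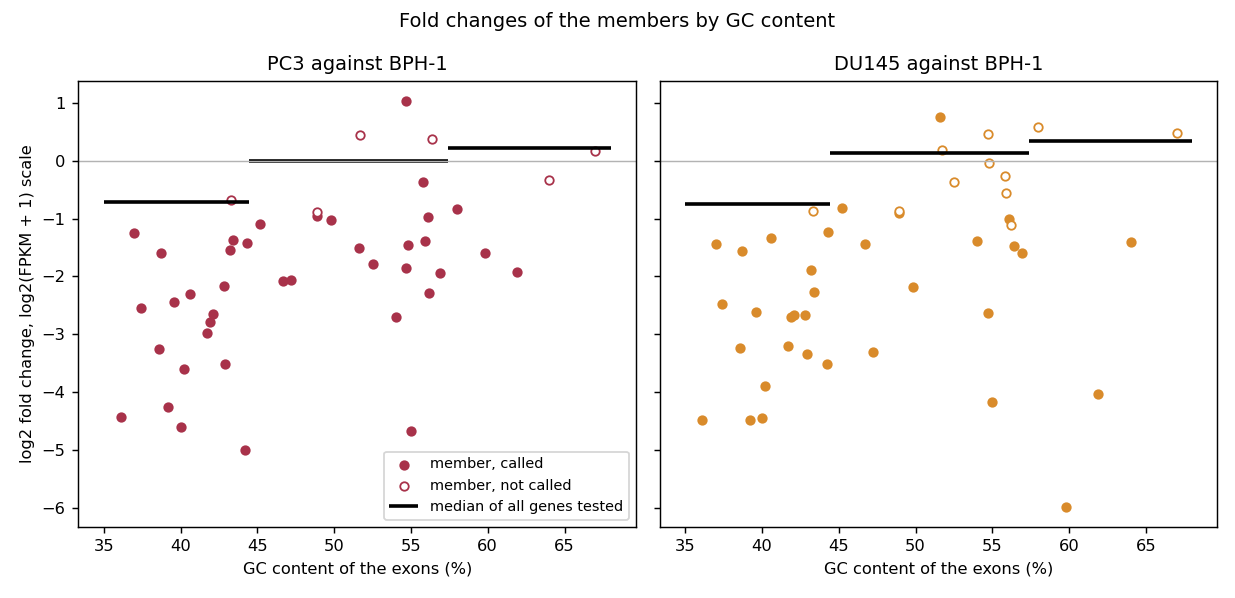
Log2 fold change of each member on the log2(FPKM + 1) scale (vertical axis) against the GC content of its exons in percent (horizontal axis), for PC3 (left) and DU145 (right) against BPH-1; filled points passed the adjusted threshold, open points did not, and black bars are medians of all genes tested in each GC range. Most members lie below the bar of their range, at medians of -2.60, -1.43 and -0.84 in PC3 where the bars lie at -0.71, 0 and 0.23.

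The IFIT genes encode proteins that bind viral RNA and block its translation, and lie side by side on chromosome 10. All 4 were lower in both cancer lines. IFIT3 (chr10:89327894-89340971, GRCh38) was among the most abundant members in BPH-1, at 66.5, 112, 43.4 and 74.9 FPKM in replicates 1 to 4. In DU145 it was at 4.91, 11.1, 1.45 and 7.71 FPKM, and in PC3 at 1.87, 1.69, 1.04 and 0.556. Every cancer library lay below every BPH-1 library, and DU145 replicate 3 lay inside the PC3 range. The log2 fold change of IFIT3 was -5.00 (SE 0.29, adjusted p = 7e-07) in PC3, the most negative of any member there on the log2(FPKM + 1) scale, and -3.51 (SE 0.46, adjusted p = 1.18e-04) in DU145. This scale understates falls to near 0, and by the ratio of means IFIT3 was 57.7-fold lower in PC3, less than SAMD9 and IFI44. With the GC correction the values were -4.77 and -3.20. IFIT1, IFIT2 and IFIT5 averaged 18.3 ± 11.4, 15.2 ± 4.91 and 12 ± 2.21 FPKM in BPH-1 (SD, n = 4) and between 1.32 and 1.76 FPKM in the cancer lines, and their log2 fold changes were between -2.78 and -2.48 in both lines.

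The IFITM genes, which lie together on chromosome 11, encode small membrane proteins that hinder fusion of viruses with the cell. The members of this family differed from each other. IFITM3 (chr11:319669-327537) was at 93.5, 140, 86.5 and 104 FPKM in BPH-1, at 30.4, 29.9, 30.5 and 47.3 in PC3, and at 0.433, 0.574, 0.940 and 0.767 in DU145. The 3 lines did not overlap. Its log2 fold change was -5.98 (SE 0.19, adjusted p = 3.51e-08) in DU145, a 156-fold lower mean and the most negative value of any member on the log2(FPKM + 1) scale, on which genes that fell closer to 0, such as SAMD9 and IFI16, are understated. In PC3 it was -1.59 (SE 0.19, adjusted p = 6.71e-05). IFITM1 (chr11:313506-315272) was at 24.1, 54.5, 18.6 and 28.6 FPKM in BPH-1, at 0.972, 1.19, 0.511 and 0.138 in DU145, and at 0.107, 0.135, 0.200 and 0.286 in PC3, where the highest library held 8 reads. IFITM1 thus fell in both lines, with log2 fold changes of -4.18 (SE 0.33, adjusted p = 4.58e-06) in DU145 and -4.67 (SE 0.28, adjusted p = 8.07e-07) in PC3. IFITM2 (chr11:307631-315272, a span that takes in IFITM1) was at 5.76, 9.07, 5.24 and 5.49 FPKM in BPH-1, 1.98, 2.80, 1.23 and 0.846 in DU145, and 12.4, 6.82, 7.31 and 7.75 in PC3. It fell in DU145 by 1.47 on the log2 scale (SE 0.25, adjusted p = 6.82e-04), and in PC3 its range overlapped that of BPH-1 (log2 fold change 0.37, SE 0.21, adjusted p = 0.15). Of the 50-base windows of their exons, 32% of IFITM1, 34.3% of IFITM2 and 35.2% of IFITM3 also occur in other genes, mostly each other or an antisense gene, so reads may be split among them.

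The OAS genes, on chromosome 12, encode enzymes that sense double-stranded RNA and make the 2-5A signal that activates RNase L; OASL is a relative without this activity. All 4 fell in both lines. OAS3 was the most abundant, at 67.1 ± 32.6 FPKM in BPH-1, 9.36 ± 2.54 in DU145 and 16.4 ± 1.48 in PC3 (SD, n = 4). OAS2 was at 12.5 ± 10.4 FPKM in BPH-1, 1.70 ± 0.536 in PC3 and 0.122 ± 0.0681 in DU145, with a log2 fold change of -3.30 (SE 0.41, adjusted p = 8.65e-05) in DU145. OASL fell by 2.71 in PC3 and by 1.39 in DU145 on the log2 scale. OAS1 was the least certain, with -1.03 in PC3 (SE 0.41, adjusted p = 0.0465), where the lines overlapped; without BPH-1 replicate 2 it was -0.62 and no longer passed the threshold, as in 11 of its 20 alternatives.

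The 5 members grouped as sensors of foreign nucleic acid were all lower in both lines. They are DDX58 (RIG-I) and IFIH1 (MDA5), helicases that detect viral RNA; EIF2AK2 (PKR), a kinase that stops translation; DDX60, a helicase; and IFI16, which binds DNA. IFI16 (chr1:158999968-159055155) was at 20.7, 24.2, 29 and 20.8 FPKM in BPH-1, at 0.226, 0.268, 0.00660 and 0.0304 in DU145, and at 0.00786, 0.0371, 0 and 0 in PC3. The lowest BPH-1 library held 3133 IFI16 reads and the highest PC3 library 5. Its log2 fold change was -4.60 (SE 0.13, adjusted p = 1.35e-08) in PC3 and -4.44 (SE 0.17, adjusted p = 8.69e-08) in DU145, and its spread in BPH-1 was small, with replicate 3 and not replicate 2 the highest. DDX58 (chr9:32455705-32526324) was at 20.9, 41.0, 16.3 and 24.4 FPKM in BPH-1, 0.535, 1.39, 0.0864 and 1.13 in DU145 and 1.70, 1.43, 1.28 and 0.257 in PC3. DDX58 fell without overlap, with log2 fold changes of -3.60 (SE 0.31, adjusted p = 8e-06) in PC3 and -3.89 (SE 0.32, adjusted p = 6.31e-06) in DU145. IFIH1, DDX60 and EIF2AK2 averaged 10.9, 10.4 and 27.8 FPKM in BPH-1, and their log2 fold changes were -2.97, -3.26 and -2.45 in PC3 and -3.21, -3.24 and -2.62 in DU145. EIF2AK2, with a GC content of 39.6%, changed most with the GC correction, to -1.48 and -1.69.

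SAMD9 and SAMD9L, neighbours on chromosome 7 whose proteins restrict poxviruses and cell growth, were close to absent from the cancer lines. SAMD9 (chr7:93099513-93118023) was at 20.1, 34.0, 16.9 and 24.7 FPKM in BPH-1, 0.106, 0.176, 0.0112 and 0.0214 in DU145 and 0.280, 0.109, 0.0580 and 0.0444 in PC3. The log2 fold changes of SAMD9 were -4.43 (SE 0.20, adjusted p = 1.48e-07) in PC3, a 195-fold lower mean, and -4.49 (SE 0.21, adjusted p = 2.69e-07) in DU145. SAMD9L averaged 2.30 ± 1.52 FPKM in BPH-1 and 0.0430 and 0.0168 in DU145 and PC3, where 2 and 1 of the 4 libraries had no read, and fell by 1.56 and 1.60 on the log2 scale. PARP9 and PARP14, ADP-ribosylating enzymes of the interferon response, fell by 1.37 and 2.17 in PC3 and by 2.27 and 2.67 in DU145 on the log2 scale.

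Among large GTPases, GBP1 fell and MX2 and GBP2 did not pass the threshold in either line. GBP2 averaged 2.57 FPKM in BPH-1, 0.835 in DU145 and 1.04 in PC3. Its log2 fold changes were -0.86 in DU145 (adjusted p = 0.0526) and -0.68 in PC3 (adjusted p = 0.0964). GBP2 passed as lower in 9 of 22 alternatives in DU145 and in 2 of 20 in PC3. GBP1, a guanylate-binding protein induced strongly by interferon-gamma, was at 11.8 ± 6.97 FPKM in BPH-1 and 0.154 ± 0.139 in DU145, and had no read in 3 of 4 PC3 libraries. The log2 fold changes of GBP1 were -3.52 in PC3 (SE 0.29, adjusted p = 6.92e-06) and -3.34 in DU145 (SE 0.31, adjusted p = 1.25e-05). MX1, which traps viral nucleocapsids, was at 2.86, 14.8, 2.18 and 4.82 FPKM in BPH-1, 4.8, 3.33, 2.78 and 3.29 in DU145 and 0.655, 0.720, 0.724 and 0.667 in PC3. MX1 fell in PC3, by 1.78 on the log2 scale (SE 0.42, adjusted p = 0.00437), and DU145 lay inside the BPH-1 range (log2 fold change -0.37, SE 0.44, adjusted p = 0.481; 0.12 without BPH-1 replicate 2). MX2 was at 0.262, 3.84, 0.229 and 0.707 FPKM in BPH-1, so its mean of 1.26 rested on replicate 2. The MX2 libraries of PC3 lay between 0.0233 and 0.0279, below every BPH-1 library, with an adjusted p of 0.0609. Without BPH-1 replicate 2 MX2 passed as lower in both lines, at -0.43 in PC3 and -0.41 in DU145.

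The genes of the ISG15 system did not move as 1 group. ISG15 is a ubiquitin-like protein, UBE2L6 and HERC5 attach it to targets, HERC6 is a related ligase, and USP18 removes it and restrains receptor signalling. ISG15 was at 27.2, 67.5, 29.2 and 38.6 FPKM in BPH-1, 25, 27.7, 30.9 and 38.1 in PC3 and 20.6, 9.86, 15.8 and 11.2 in DU145. PC3 overlapped BPH-1 (log2 fold change -0.33, SE 0.27, adjusted p = 0.298; -0.87 and past the threshold with the GC correction), and DU145 fell by 1.40 (SE 0.31, adjusted p = 0.00316). HERC5 and HERC6 fell in PC3 by 2.31 and 2.08 and in DU145 by 1.34 and 1.44 on the log2 scale, and UBE2L6 fell by 1.39 in PC3, while its value in DU145 was -0.55 (adjusted p = 0.0968), or -0.97 and past the threshold with the GC correction. HERC5 in DU145 was at -0.76 with the GC correction, at -1.13 without BPH-1 replicate 2 and at -0.58 without DU145 replicates 1 and 3, and then did not pass. USP18 (chr22:18149899-18177397) was the only member called higher in DU145, at 23.1, 16.2, 24.8 and 16.5 FPKM against 9.05, 21.4, 8.23 and 10.0 in BPH-1, whose replicate 2 lay inside the DU145 range. The log2 fold change of 0.76 (SE 0.29, adjusted p = 0.0419) fell to 0.40 with the GC correction, not past the threshold, and rose to 1.05 (adjusted p = 0.00245) without BPH-1 replicate 2; it passed in 10 of 22 alternatives, and not when BPH-1 replicate 1, 3 or 4 or DU145 replicate 1 or 3 was left out. In PC3, at 3.12, 3.12, 3.01 and 4.32 FPKM, USP18 fell by 1.5 (SE 0.26, adjusted p = 7.42e-04). USP18 shares 23.4% of its windows with other genes, mostly USP41.

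Of the 4 transcription factors of the set, IRF9 fell in both lines, IRF1 in PC3, and STAT2 and IRF7 passed in neither. STAT2, a subunit of the complex at the response element, was at 6.62 ± 2.72 FPKM in BPH-1, 7.29 ± 0.783 in DU145 and 8.99 ± 1.26 in PC3 (SD, n = 4), with adjusted p-values of 0.523 in DU145 and 0.105 in PC3. IRF7, which drives type I interferon genes, was at 2.1 ± 1.44, 3.12 ± 1.04 and 2.27 ± 0.412 FPKM, with adjusted p-values of 0.188 in DU145 and 0.592 in PC3; without BPH-1 replicate 2 both IRF7 values passed as higher (0.76 and 0.45), and that of STAT2 in PC3 (0.66). IRF9, the DNA-binding subunit, fell by 1.0 in DU145 and by 0.97 in PC3 on the log2 scale (adjusted p = 0.00516 and 0.00653); 43.8% of its windows also lie in other annotated genes, mostly AL136295.5 on the same strand. IRF1 (chr5:132481609-132490798), the first responder to interferon-gamma, was at 5.27, 5.89, 4.90 and 5.01 FPKM in BPH-1, 6.89, 4.56, 5.67 and 3.74 in DU145 and 1.41, 1.13, 0.951 and 1.63 in PC3. It fell in PC3 by 1.46 (SE 0.13, adjusted p = 9.12e-06), and DU145 spanned the BPH-1 range (log2 fold change -0.04, SE 0.18, adjusted p = 0.876); with the GC correction IRF1 was at -0.40 in DU145 and passed as lower (adjusted p = 0.0219). An antisense gene covers 19.4% of the IRF1 windows, and strand use in counting is not stated.

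Of the 12 other members, 11 fell in PC3 and 8 in DU145. IFI44 (chr1:78649796-78664078), a cytosolic protein of the antiviral response, was at 22, 39.1, 18.6 and 30.1 FPKM in BPH-1, 0.232, 0.346, 0.174 and 0.140 in DU145 and 0.644, 0.608, 0.291 and 0.249 in PC3, with no overlap between BPH-1 and either line. The log2 fold changes of IFI44 were -4.49 (SE 0.22, adjusted p = 3.58e-07) in DU145 and -4.25 (SE 0.22, adjusted p = 3.51e-07) in PC3. LGALS3BP (chr17:78971238-78980109), a secreted glycoprotein, was at 26.3, 42.5, 26.8 and 33.0 FPKM in BPH-1, 1.3, 0.852, 0.920 and 0.846 in DU145 and 7.58, 8.05, 7.97 and 6.88 in PC3. Its 3 ranges were separate, with log2 fold changes of -4.04 (SE 0.19, adjusted p = 2.56e-07) in DU145 and -1.92 (SE 0.16, adjusted p = 5.61e-06) in PC3. With a GC content of 61.9%, LGALS3BP fell further with the GC correction, to -4.39 and -2.42.

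XAF1 (chr17:6755447-6775647), which counters an inhibitor of apoptosis, was the only member with no read in any library of a line. XAF1 was at 0.702, 2.55, 0.170 and 0.978 FPKM in BPH-1, 0.0418, 0.0507, 0 and 0.0112 in DU145 and 0 in all 4 PC3 libraries. Against a floor of 3 reads per library its mean was at least 65.1-fold higher in BPH-1 than in PC3, or at least 36.5-fold without BPH-1 replicate 2; 34.7% of its windows are shared with the antisense gene PRAL. BST2 (tetherin), which holds budding viruses on the cell, was at 0.671, 11.7, 0.750 and 5.10 FPKM in BPH-1, so that its mean rested on replicates 2 and 4, and 1 read was found in all of PC3. BST2 was called lower in DU145 (log2 fold change -1.60, SE 0.58, adjusted p = 0.0337), and not so without BPH-1 replicate 2 (-1.03) or when any 1 of BPH-1 replicate 4 and DU145 replicates 1, 3 and 4 was left out. RSAD2 (viperin), which makes a nucleotide that ends viral RNA chains, was low throughout, at 1.18 ± 0.350 FPKM in BPH-1 (SD, n = 4) and with reads in 1 of 4 PC3 libraries. SP100, a nuclear body protein, TRIM22, a ubiquitin ligase, and IFI44L, a relative of IFI44, fell in both lines, with log2 fold changes between -1.89 and -1.23. When DU145 replicates 1 and 3 were left out, which leaves 2 DU145 libraries, TRIM22, XAF1 and IFI44L kept log2 fold changes of -1.24, -0.91 and -1.43 and did not pass, and IFI44L was at -1.04 in PC3 with the GC correction and did not pass.

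The remaining genes of this group differed from each other. ISG20, an RNA exonuclease, was the only member called higher in PC3, at 2.06, 2.58, 4.44 and 2.14 FPKM against 0.612, 1.35, 0.593 and 0.781 in BPH-1 (log2 fold change 1.03, SE 0.20, adjusted p = 0.00151). In DU145 it was at 1.85, 1.01, 2.20 and 1.12 FPKM (log2 fold change 0.46, adjusted p = 0.0529; 0.59 and past the threshold without BPH-1 replicate 2). IFI35, which binds the factor NMI, was at 5.08 ± 1.77 FPKM in DU145, 3.09 ± 1.47 in BPH-1 and 1.20 ± 0.183 in PC3 (SD, n = 4), and fell in PC3 by 0.84 on the log2 scale (adjusted p = 0.00591). IFI6, a mitochondrial protein, was at 9.40, 50.5, 8.64 and 18.3 FPKM in BPH-1 and 10.7, 3.77, 9.27 and 6.96 in DU145, which overlapped (log2 fold change -1.11, adjusted p = 0.0796, or -1.51 and past the threshold with the GC correction), and fell in PC3 by 2.28 (SE 0.47, adjusted p = 0.00186). IFI27, a small membrane protein, stayed under 1 FPKM in all 12 libraries and fell in PC3 by 0.36 on the log2 scale (adjusted p = 0.0136). In DU145 the value of IFI27 was -0.27 and did not pass (adjusted p = 0.053).

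**Figure D4:**
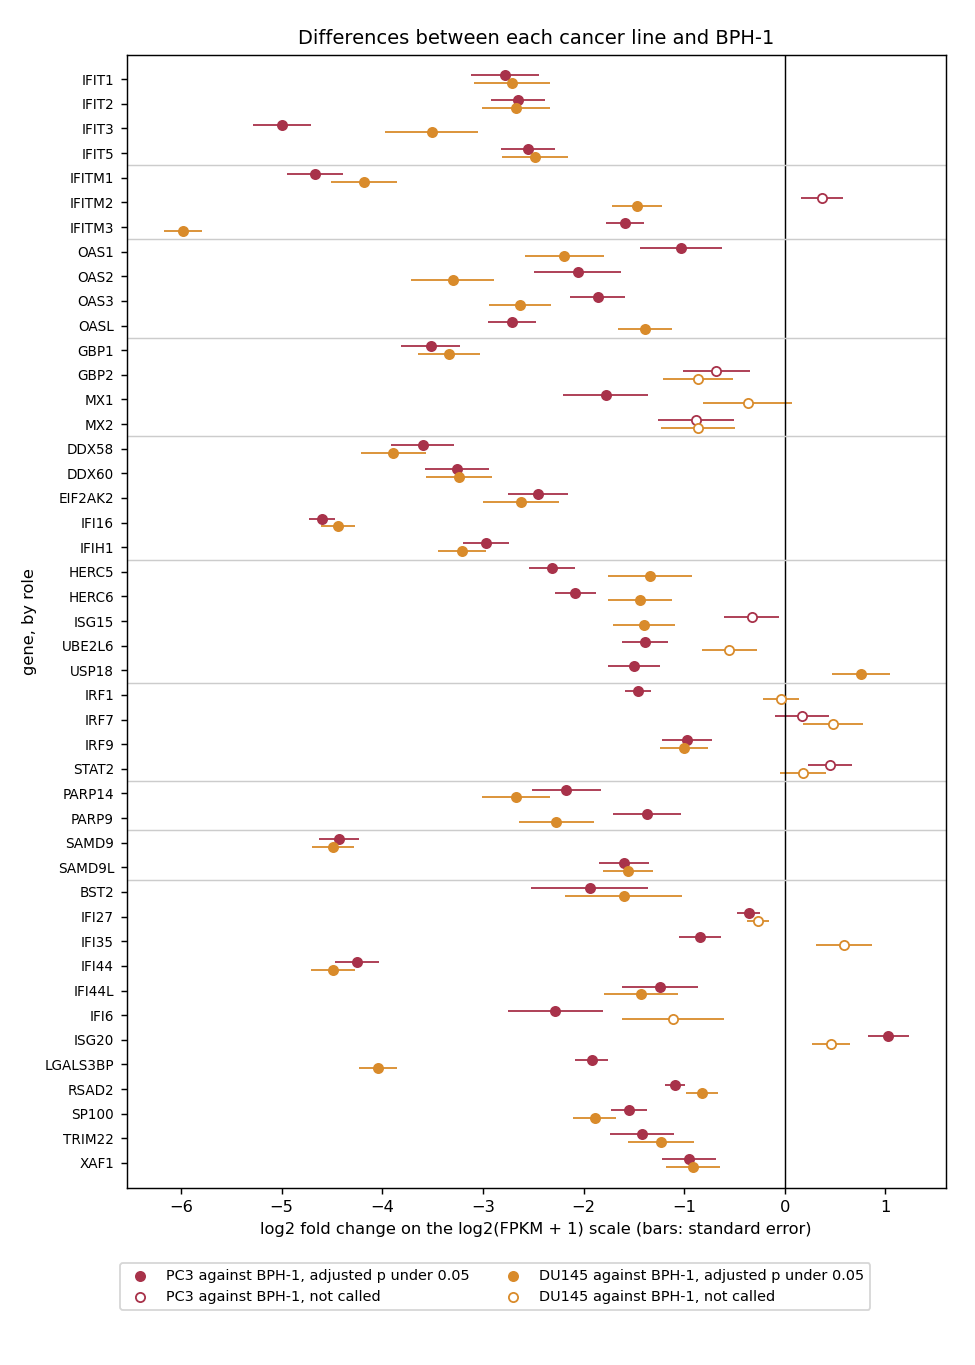
Log2 fold change of each of the 45 members against BPH-1 on the log2(FPKM + 1) scale (horizontal axis), for PC3 and DU145, with the standard error from 4 against 4 libraries as bars; filled points passed the adjusted threshold. Points reach from -5.98 (IFITM3 in DU145) to 1.03 (ISG20 in PC3), and in PC3 38 filled points lie left of 0 and 1 right of it.

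PC3 and DU145 were then compared with each other. Of the 45 members, 35 had enough reads to be tested; IFI16, IFITM1, MX2, RSAD2, DDX60, BST2, GBP1, SAMD9L, TRIM22 and XAF1 did not. Of the 35, 9 were higher and 8 were lower in PC3, so that 25.7% and 22.9% of those tested were called, against 20% and 28.3% of all 16420 genes tested and 48.3% in either direction. The members as a set were thus called about as often as other genes between the 2 cancer lines, with a median log2 fold change of 0.17 against -0.05. IFITM3 differed most, with a log2 fold change of 4.39 (SE 0.19, adjusted p = 3.97e-07) and a mean 51.0-fold higher in PC3. LGALS3BP was higher by 2.13 (SE 0.14, adjusted p = 4.11e-06) and IFITM2 by 1.84 (SE 0.26, adjusted p = 4.08e-04). Of the OAS family, OAS2, OAS1 and OAS3 were higher in PC3 by 1.25, 1.16 and 0.77, whereas OASL was lower, with -1.32 (SE 0.15, adjusted p = 9.88e-05). ISG15 was higher in PC3 by 1.07 (SE 0.23, adjusted p = 0.00454), and USP18, the enzyme that removes it, was lower, with -2.25 (SE 0.18, adjusted p = 1.33e-05). IRF1 was lower in PC3 by 1.43 (SE 0.19, adjusted p = 2.92e-04), IFI35 by 1.42 and MX1 by 1.41, each without overlap. PARP9 and IFI44L were higher by 0.90 and 0.18 with adjusted p-values of 0.0399 and 0.0404, and passed in 8 of 21 and 9 of 20 alternatives. IFI6 and UBE2L6 were lower, with -1.16 and -0.84. IFIT3 was lower by 1.49 (SE 0.45, adjusted p = 0.023) with overlapping ranges and an exact permutation p of 0.0857, and did not pass without PC3 replicate 3 or 4 or without DU145 replicate 2 or 4 (adjusted p between 0.0531 and 0.0611). IFIT1, IFIT2, IFIT5, DDX58, EIF2AK2, IRF9 and SAMD9 had log2 fold changes between -0.08 and 0.29 and did not pass. HERC5 (-0.98, adjusted p = 0.0551), HERC6 (-0.64), ISG20 (0.57) and PARP14 (0.50) lay further from 0 and did not pass either. The rest of the uncalled members lay between -0.31 (IRF7) and 0.34 (SP100). The smallest p that an exact permutation test of 4 against 4 libraries can give is 0.0286.

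**Figure D5:**
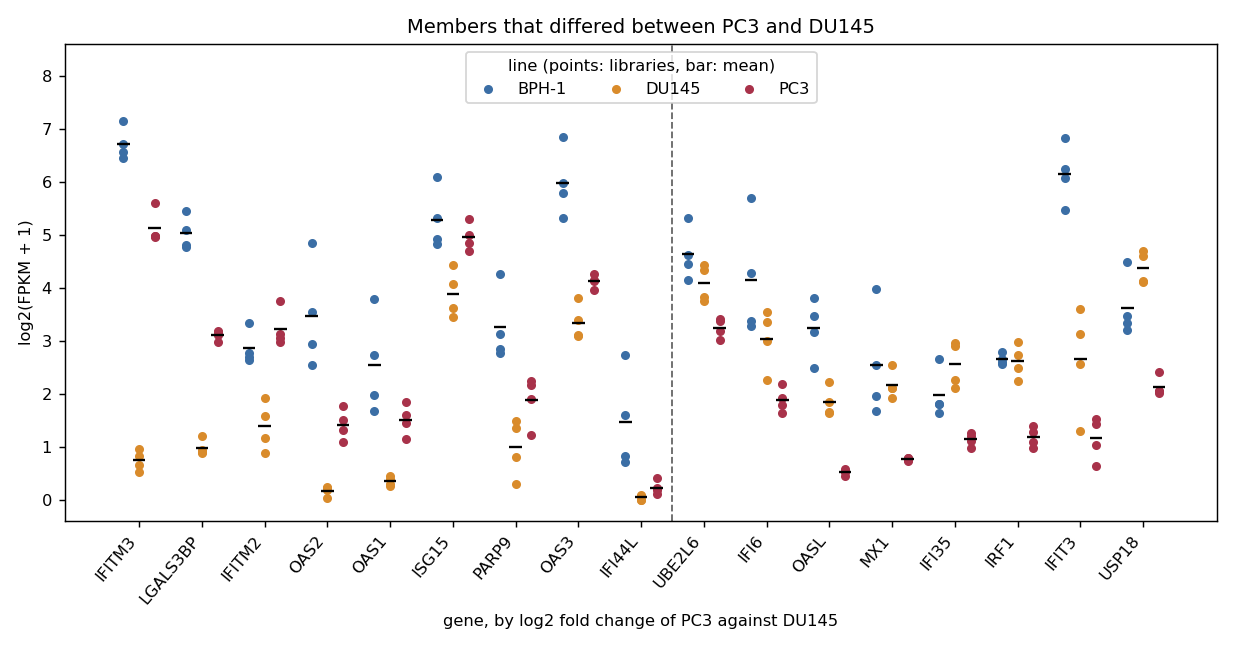
Level as log2(FPKM + 1) (vertical axis) of the 17 members called between PC3 and DU145 in each of the 12 libraries (points, by line; bars are means), ordered by log2 fold change from IFITM3 (4.39) on the left to USP18 (-2.25) on the right; the dashed line parts the 9 higher from the 8 lower in PC3. The DU145 points of IFITM3 sit near the bottom of the plot, and those of USP18 above the PC3 points.

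The rest of the pathway was read in the same fits, over 90 further genes. In PC3, 46 of 73 tested were lower and 12 higher than in BPH-1, and in DU145 32 of 72 were lower and 14 higher, with median log2 fold changes of -0.71 and -0.47. These are 63.0% lower and 16.4% higher in PC3, against 40.4% and 27.1% of all genes, and 44.4% lower and 19.4% higher in DU145, against 32.4% and 30.3%. The shares were not taken within ranges of GC content. IFNE, IFNAR1, IFNGR1, JAK2, NMI, TBK1 and TNFSF10, named below, had a GC content up to 44.4%. In that range, 69.2% of all genes tested were lower in PC3 and 61.9% in DU145. Interferon RNA itself was scarce. IFNL2, IFNL3 and IFNW1 had no read in any library, and IFNA1, IFNG and IFNK at most 2 reads in any. IFNB1 was detected in DU145 at 0.216, 0.143, 0.528 and 0.260 FPKM, with at most 7 reads, in BPH-1 replicates 2 and 4, and in no PC3 library. IFNL1 was at 0.720, 0.0715, 0.605 and 0.522 FPKM in DU145, with at most 10 reads, and in BPH-1 in replicate 2 only (0.382). IFNE, an epithelial interferon, was the only ligand tested, at 0.865 ± 0.187 FPKM in BPH-1 (SD, n = 4), and fell in both lines, by 0.86 in DU145 and 0.59 in PC3 on the log2 scale.

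The receptors did not fall together. IFNAR2, IFNGR2 and IL10RB were higher in both cancer lines, with log2 fold changes of 1.15, 0.72 and 1.05 in DU145 and 0.51, 1.3 and 0.60 in PC3. IFNGR1, the ligand-binding chain for interferon-gamma, fell by 2.16 and 1.98. IFNAR1 was at 1.81, 9.05, 0.945 and 8.03 FPKM in DU145 and between 11.9 and 13.2 in BPH-1, so its fall of 1.53 (adjusted p = 0.0191) rested mostly on DU145 replicates 1 and 3. JAK1 had the same split, at 11.7, 37.2, 5.91 and 35.6 FPKM in DU145, and did not pass there (adjusted p = 0.176); in PC3 it fell by 1.18. JAK2 fell by 1.5 and 1.32 in DU145 and PC3, and TYK2 rose by 0.63 and 0.96.

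STAT3, which answers other cytokines, was at 0.0416 ± 0.0130 FPKM in PC3 against 15.4 ± 2.18 in BPH-1 and 24.2 ± 2.02 in DU145 (SD, n = 4). IRF2 and NMI fell in both lines, by 1.65 and 1.35 in DU145 and by 1.3 and 1.71 in PC3. IRF5 and IRF8 were higher in DU145, by 0.65 and 0.40 (adjusted p = 0.00202 and 1.89e-04); in PC3 IRF5 was at -0.07 and IRF8 was too low to be tested. IRF3 did not pass in either line. Of the remaining lists, TBK1, the kinase that activates IRF3, fell by 3.14 in PC3 and 2.69 in DU145, and TNFSF10 (TRAIL) by 2.89 and 2.87. PSMB9, an immunoproteasome subunit, fell by 2.53 in PC3, and DTX3L, the partner of PARP9, by 2.51 in DU145. Between the cancer lines, 12 of 67 tested were higher (17.9%) and 23 lower (34.3%) in PC3, against 20% and 28.3% of all genes, with APOBEC3G (2.48), IFI30 (1.44) and PSMB9 (-1.63) the most different outside the ligands, receptors and factors, and STAT3 at -4.59.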

How the data were processed

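RNA-sequencing values of 12 libraries, 4 each of BPH-1, DU145 and PC3, were analysed. The authors deposited 1 table of FPKM values, normalized by them to gene length and library depth; its header names no unit, which was read from the form of the values. The submitters' processing notes name CASAVA 1.8, HISAT2 2.1.0 and edgeR, with build GRCh38; the counting program and strand use are not given in the sources used here. With gene length as the sum of distinct exons (GENCODE 29), 95.8% to 96.7% of low values came out as whole reads within 0.01 of a read, which gave the depth of each library. For 263 genes no length was found, and they were left out. The reads of PARP14, ISG15, IFIH1, IRF7 and EIF2AK2 were approximate.

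The test was limma 3.58.1 (R 4.3.3) with its trend option on log2(FPKM + 1), using only the 2 lines compared. Genes needed 10 reads at the median depth in 4 libraries and 15 reads in all, and p-values were Benjamini-Hochberg adjusted over all genes tested. Fold changes on this scale understate changes of low genes. Folds of means were given where every library held more than 3 reads. Intervals and floors cover counting error only. A fit on simulated data with known changes was checked first. It found 50% to 57% of 2-fold changes and 99% to 100% of 4-fold changes, so genes that did not pass may still differ. The simulated spread was the same for all genes and may differ from that of these libraries. The members and lists were chosen with earlier results of these data known. Values in every library are given for the 6 members with the largest absolute log2 fold change among those called in each comparison and for members without a read in a line, and for others chosen after their values were seen; of the pathway list, ligands, receptors, kinases and factors were named, and the 3 most changed of the rest per comparison. 1 pathway gene is not reported here. Alternatives were other scalings, pseudocounts and filters, voom on recovered reads, 1 fit over all lines, an exact test, a fold limit, the replicate number as a block, and each library left out.

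For the GC correction, log2 FPKM of genes holding 50 reads or more was smoothed on GC content in every library (B-spline, 5 degrees of freedom) and the curve was subtracted, which also removes real differences that follow GC content. It was added after the data were seen, as were leaving out DU145 replicates 1 and 3, or 1 and 2, and the correction without BPH-1 replicate 2. No pair of replicates agreed within counting noise (chi-square per gene from 17.4 to 216). Windows of 50 bases were matched between GENCODE 29 transcripts to find shared sequence. Other software was Python 3.11.15, numpy 2.4.6, pandas 2.3.3 and matplotlib 3.10.9.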

Additional observations from a re-analysis of the deposited data

Results flagged for a closer look

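Within a line, 14 values lay apart from the other 3 libraries by Dixon's test, out of 132 groups of 4 examined; chance gives about 5 in 100. In BPH-1 replicate 2 these were IFI35 at 5.28, IFITM2 at 9.07, MX2 at 3.84, EIF2AK2 at 39.0, PARP9 at 18.1, SP100 at 7.33 and USP18 at 21.4 FPKM, each above the others, and this is the library in which 43 of 45 members were highest. In PC3 they were IFITM2 at 12.4 in replicate 1, IFITM3 at 47.3 and USP18 at 4.32 in replicate 4, and RSAD2 at 0.055 in replicate 1 and GBP1 at 0.0586 in replicate 2, where the other 3 libraries had no read. In DU145 they were DDX60 at 0.238 in replicate 2 and LGALS3BP at 1.3 in replicate 1. No explanation of these values was tested.

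The changes of PC3 and DU145 against BPH-1 differed from each other, by the direct test of PC3 against DU145, for 17 of the 35 members tested. Of all genes tested, 48.3% were called there, so the members as a set did not stand out. On the log2 scale PC3 was higher for IFITM3 (4.39), LGALS3BP (2.13), IFITM2 (1.84), OAS2 (1.25), OAS1 (1.16), ISG15 (1.07), PARP9 (0.90), OAS3 (0.77) and IFI44L (0.18). It was lower for USP18 (-2.25), IFIT3 (-1.49), IRF1 (-1.43), IFI35 (-1.42), MX1 (-1.41), OASL (-1.32), IFI6 (-1.16) and UBE2L6 (-0.84). IFI44L, PARP9 and IFIT3 passed in only 9 of 20, 8 of 21 and 15 of 21 alternatives.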

How the results depend on the processing

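No member called in any comparison changed sign under the alternatives, and 37 of 39 calls in PC3, 28 of 34 in DU145 and 14 of 17 between the cancer lines passed under every alternative that tested the gene, the fold limit aside. For members near 0 in a cancer line the sign against BPH-1 was fixed in advance. The stricter filter left them out, so these counts say little about them. The counts of lower members held within 1.5 times (34 to 40 in PC3, 27 of 33 tested with the stricter filter), except that the stricter filter, 10 reads in every library, tested 28 members in DU145 and called 19 lower. With that filter, 4720 of all 12958 genes tested were lower in PC3 and 3942 of 13242 in DU145. The counts of higher members were small and moved. In PC3, 3 were higher with upper-quartile scaling, 2 with median-of-ratios scaling and between 1 and 4 when a library was left out. In DU145, 0 were higher with the same summed FPKM, without a filter, with the replicate block, with the fold limit, by the exact permutation test, with the GC correction and without DU145 replicates 1 and 3 or 1 and 2 (limma throughout but for the exact test; at an unadjusted p under 0.05 between 0 and 2, and voom called 1); 2 were higher with upper-quartile scaling or the stricter filter, 3 with the GC correction without BPH-1 replicate 2, and between 0 and 4 when a library was left out. The 4 without BPH-1 replicate 2 were IFI35, IRF7, ISG20 and USP18 in DU145 and IFITM2, IRF7, ISG20 and STAT2 in PC3. Of the other pathway genes, an absolute log2 fold change over 1 left 3 higher and 25 lower in PC3, 6 higher and 21 lower in DU145, and 4 higher and 7 lower between the cancer lines. The stricter filter gave 18 lower in DU145 and 7 higher between the cancer lines, and the GC correction 9 higher in DU145. The cause was not tested. Over all genes, the fold limit left 1545 higher and 2884 lower of 16408 in PC3, and 1950 and 2944 of 17016 in DU145. Between the cancer lines it left 1349 higher and 1828 lower of 16420.

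Replicate numbers did not pair the libraries: correlations of same-numbered deviations were between -0.735 and 0.589, not every library correlated best with its own number, and the replicate block gave 39 lower in PC3, 35 in DU145, and 8 higher and 8 lower between the cancer lines. Scaling to the same summed FPKM moved the median of all genes by -0.156 in PC3 and -0.138 in DU145, and the share of calls that were higher from 40.2% to 30.2% and from 48.4% to 38.6%; members then stood at medians of -1.96 and -1.68, with 39 and 37 lower. With log2(FPKM + 0.1), members stood at -2.71 and -2.86. Depth limits the 10 members not tested between the cancer lines.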
